A study of Mus musculus with 65 samples.

Results

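Within 15 min of the degrader reaching the cells, transcription rose at genes of the red cell membrane, of heme synthesis and of platelets, and at several genes for blood transcription factors. Cbfa2t3 itself, the gene of the degraded protein, rose by 1.69 in log2 with all libraries. Without replicate 2 of the treated group, which stood apart from the others, it rose by 1.19. With all libraries fewer genes fell, and they fell by less, with enzymes of glycolysis among them. Without 3 libraries of the time course that stand apart, however, 1792 genes were higher and 1744 lower. In a second experiment Cbfa2t3 rose by 0.63. Of red cell membrane genes 9 of 18 were called higher there and none lower, and of heme and iron genes 8 of 20 higher and 2 lower. Platelet genes, at 2 of 20 higher and 1 lower, were near the 10.9% and 5.8% of all genes there. The glycolysis genes Pkm, Gpi1 and Pgk1 did not pass there and Pfkl was higher, while Eno1 and Pgam1 fell there too. The comparison is that of 3 libraries taken after 15 min of degrader with 3 DMSO libraries, which together are 6 of the 65 samples of the series. They were chosen by their labels and not by any measured value.

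All cells were MEL cells, a mouse erythroleukemia line, carrying Mtg16-FKBP-2XHA, that is, the corepressor Mtg16 (gene Cbfa2t3) with a degradation tag and an HA tag. The 15 min group received 250 nM dTAGV1, which directs tagged proteins to the proteasome and is called the degrader here, and the control group received DMSO, so that the tagged protein is common to both. The assay was PRO-seq, which labels the RNA that engaged polymerases are making in isolated nuclei, read over genes and over dREG sites. A dREG site is a stretch whose run-on signal has the shape of an active promoter or enhancer. These values are of RNA only, so the degree of protein loss at 15 min is not known from them. Whether the tagged line is 1 clone, and whether replicates were separate cultures, is not given, and p-values may therefore measure technical spread only. A 30 min group of the same time course is used for comparison. So is a second experiment, called the A485 series after an acetyltransferase inhibitor used elsewhere in it, with its own DMSO and 15 min degrader libraries (replicates 4 to 6) that received no inhibitor.

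Mtg16 does not bind DNA itself. It is held at regulatory elements by DNA-binding factors, in erythroid cells chiefly by the complex of SCL (gene Tal1) with E proteins, Gata1, Lmo2 and Ldb1, and it brings along the nuclear receptor corepressors and histone deacetylases. In red cell precursors this complex occupies E-boxes and GATA motifs at genes that are switched on as the cells mature, and Mtg16 is known to restrain them. An engineered degrader makes it possible to read the polymerases before secondary changes have had long to build up.

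The promoters shown are those of the 4 rises with the highest DMSO counts among the genes picked by the naming rule given with the methods, so that the changes behind them rest on many reads. They are Cbfa2t3, Gfi1b, which encodes a repressor of the erythroid and platelet lineages, Mki67, the gene of a proliferation marker, and Tgfb1, the gene of a secreted growth factor. The rise of Tgfb1 was small and lost its call when any 1 library was left out. The windows are RefSeq promoter windows of 300 bases on GRCm38.p6, written 5′ to 3′ on the gene's strand. Cbfa2t3 lies at chr8:122699060-122699359 (minus strand, the first of its 2 windows), Gfi1b at chr2:28621933-28622232 (minus), Mki67 at chr7:135716330-135716629 (minus) and Tgfb1 at chr7:25686752-25687051 (plus). Capitals mark the SCL/GATA composite match in Cbfa2t3 (on the opposite strand) and in Gfi1b, where it ends in a GATA match, and the 1 E-box in Mki67, while Tgfb1 has none of these letters in its window.
Cbfa2t3: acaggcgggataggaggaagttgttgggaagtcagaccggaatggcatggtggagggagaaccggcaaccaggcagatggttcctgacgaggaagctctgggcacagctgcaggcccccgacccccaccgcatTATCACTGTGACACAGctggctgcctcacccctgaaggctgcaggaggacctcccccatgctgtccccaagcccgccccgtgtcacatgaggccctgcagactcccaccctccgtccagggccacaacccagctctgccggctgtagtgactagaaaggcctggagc
Gfi1b: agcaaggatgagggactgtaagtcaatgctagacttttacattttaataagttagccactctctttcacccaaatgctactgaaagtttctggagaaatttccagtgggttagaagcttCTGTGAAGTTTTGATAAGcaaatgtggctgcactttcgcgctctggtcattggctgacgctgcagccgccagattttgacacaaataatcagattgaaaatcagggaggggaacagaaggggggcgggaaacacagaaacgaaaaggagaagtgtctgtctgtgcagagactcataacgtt
Mki67: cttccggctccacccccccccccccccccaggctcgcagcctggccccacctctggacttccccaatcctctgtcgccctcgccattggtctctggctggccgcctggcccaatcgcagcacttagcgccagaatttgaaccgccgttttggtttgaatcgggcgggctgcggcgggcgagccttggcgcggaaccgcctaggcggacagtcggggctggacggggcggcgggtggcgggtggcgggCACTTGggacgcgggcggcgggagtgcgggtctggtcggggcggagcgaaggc
Tgfb1: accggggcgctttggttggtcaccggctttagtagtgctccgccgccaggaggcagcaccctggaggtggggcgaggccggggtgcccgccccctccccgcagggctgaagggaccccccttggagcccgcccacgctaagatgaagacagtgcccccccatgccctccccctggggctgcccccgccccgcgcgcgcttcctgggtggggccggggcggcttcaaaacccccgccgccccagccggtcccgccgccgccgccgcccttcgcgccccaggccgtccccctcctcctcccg

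The motifs searched, on both strands, were the E-box CANNTG, the GATA motif GATAAG or GATAAC, and the SCL/GATA composite, which is CTG followed by GATA with 8 or 9 bases between them. A composite can overlap an E-box at its one end and a GATA motif at its other. Of the promoter windows of genes that rose at 15 min (815 windows of 596 genes), 8.34% held the composite, against 3.56% of the 13090 windows of all genes tested and 4.69% of all 32851 windows in the table. The GATA motif was in 13.3% of the windows of genes that rose, in 8.64% of those of genes tested and in 12% of all windows. The E-box was in 70.1%, 64.5% and 72.3% of the same sets. Among the 143 windows of genes that fell, 4.2% held the composite, 6.29% the GATA motif and 63.6% the E-box. These shares describe letters and were not tested, and a match is not a bound site.

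Replicate 2 of the 15 min group stood apart from replicates 1 and 3. Over genes, its median absolute log2 difference was 0.212 to the mean of the other 15 min libraries, 0.179 to the DMSO mean, 0.145 to the 30 min mean and 0.09 to the mean of the libraries labelled degrader 2 h. Replicates 1 and 3 were the other way round, at 0.132 and 0.133 from the rest of their group and 0.2 and 0.203 from the libraries labelled 2 h. Over dREG sites, replicate 2 was 0.31 from its own group and 0.201 from the libraries labelled 2 h. For the 1 h and 2 h libraries (5 libraries), the library names give the degrader and the titles give the inhibitor A485. The times are the same in both, so it is their treatment that is not settled. Counts of calls are therefore given with all 3 replicates and without replicate 2, and changes of single genes are those with all 3 replicates unless the sentence says otherwise. Recovered reads, summed over all transcripts so that a read in overlapping transcripts can count more than once, ranged from 16195241 (15 min replicate 3) to 58210248 (15 min replicate 2), and over sites from 1969884 to 6959404 in the same libraries.

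**Figure D1:**
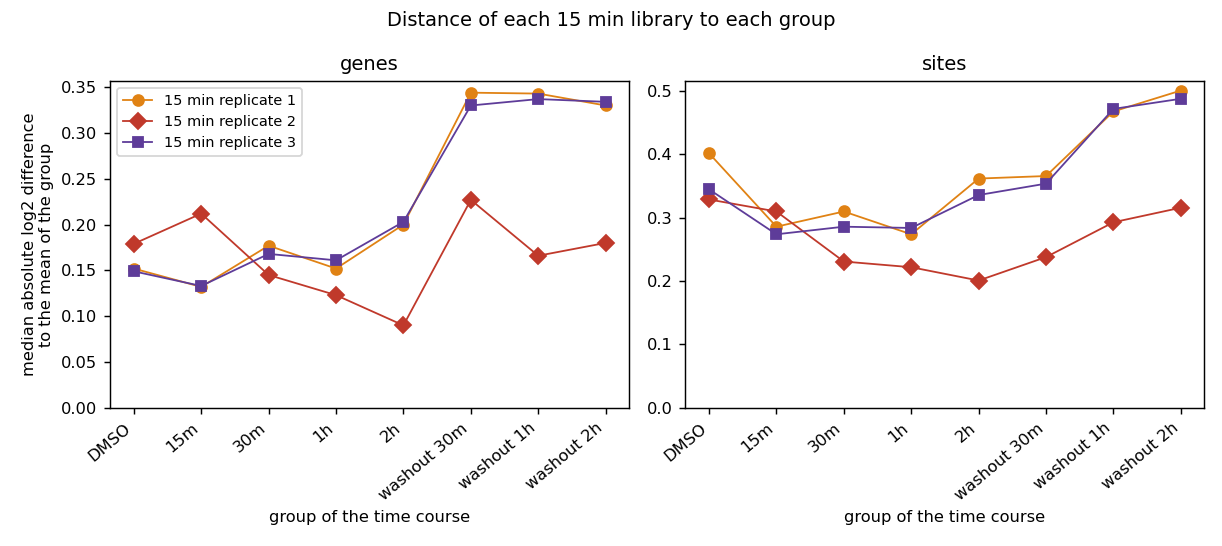
Median absolute log2 difference (y axis) between each 15 min library and the mean of each group of the time course (x axis), over genes (left) and dREG sites (right), its own library left out of the mean. Over genes, replicate 2 (diamonds) lies nearest to the libraries labelled 2 h, at 0.09, and replicates 1 and 3 lie nearest to their own group, at 0.132 and 0.133.

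With all 3 replicates, 749 of the 12720 genes tested were higher at 15 min (5.89%) and 132 were lower (1.04%), which is 6.93% in all, at a Benjamini-Hochberg adjusted p under 0.05 in limma, the threshold used throughout, and genes or sites past it are called. Refits with other filters, pseudocounts, tools or sets of libraries are the alternatives named below. Without replicate 2 the counts were 933 higher (7.33%) and 369 lower (2.9%), or 10.2% in all, and 664 genes were higher and 102 lower in both. Log2 changes are differences of log2(normalized count + 1), which understate the change of low genes. The median rise was 0.72 in log2, with 230 genes rising by at least 1 and 33 by at least 2. The median fall was -0.36, and no gene fell by 1 or more. The median of all genes tested was -0.02, and since the tables are scaled to the typical gene, a change shared by most genes would not be seen.

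The count of genes that fell depended on single libraries. It was 369 without 15 min replicate 2, 74 without 15 min replicate 1, 71 without DMSO replicate 1, 53 without DMSO replicate 2 and 79 without DMSO replicate 3. Without the 5 libraries with conflicting labels, which enter only through the shared spread, it was 46. Rises numbered 534 to 933 over the same omissions of single libraries. Without the 3 libraries of the time course that stand apart (15 min replicate 2, 30 min replicate 3 and replicate 3 of the 30 min washout, which entered for sites only), 1792 genes were higher (14.1%) and 1744 lower (13.7%), or 27.8% in all. The share of called genes that rose was 85% with all libraries, 71.7% without replicate 2 and 50.7% in that setting.

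For genes called without it, the calls had not used replicate 2, although they had used the same DMSO libraries. Of the 933 genes higher in replicates 1 and 3, replicate 2 lay above all 3 DMSO libraries in 722 (77.4%), within the DMSO range in 109 (11.7%) and below all DMSO libraries in 102 (10.9%). Over all genes tested, replicate 2 lay above all DMSO libraries in 36.9% and below all of them in 35.3%. When replicate 1 or replicate 3 was left out in the same way, the omitted library lay above all DMSO libraries in 99% and 95.7% of the genes called without it. Of the 369 genes lower in replicates 1 and 3, replicate 2 lay below all DMSO libraries in 153 (41.5%) and above all of them in 110 (29.8%), beside the 35.3% and 36.9% of all genes. Replicate 2 was at least 1.5 times the mean of replicates 1 and 3 in 54 of the 933 rises and below it by 1.5 times or more in 141.

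The filter sets part of what is seen at low counts. It keeps genes with a mean of at least 10 over all libraries of the time course, so a gene below that in DMSO was tested only because other libraries were higher. Of the genes tested 121 were of this kind, and 33 of them were called higher and none lower. Unnamed gene models and RIKEN transcripts made up 7.73% of genes tested, 9.21% of those that rose and 7.58% of those that fell.

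Cbfa2t3 stood at 28757, 23508 and 19178 normalized counts in DMSO replicates 1 to 3 and at 58870, 150635 and 48876 after 15 min of degrader. The groups do not overlap, as is so for 12% of all genes tested in the upward and 11.1% in the downward direction, and replicate 2 is more than any other 15 min or DMSO library. The log2 change was 1.69 (SE 0.29, adjusted p = 0.000977) with all replicates and 1.19 (adjusted p = 0.000198) without replicate 2. In the 30 min libraries the counts were 112144, 108200 and 164982, so replicate 2 at 15 min lay within the 30 min range. The difference of 30 min from 15 min did not pass with all libraries, and was 1.04 in log2 (adjusted p = 1.56e-05) without the 3 libraries that stand apart. Gm10612, a gene model that overlaps Cbfa2t3 in the reference table, stood at 35.3, 26.9 and 26.1 in DMSO and at 223, 436 and 243 at 15 min. Strand use in counting is not given, so the reads of the overlapping pair cannot be told apart.

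Among MTG family genes and those of their corepressor partners, 2 of 17 tested rose and none fell with all replicates, and the same count held without replicate 2. Of all genes tested, 5.89% were higher and 1.04% lower with all replicates, and 7.33% and 2.9% without replicate 2. These shares are to be set beside each list of the time course below. Beside Cbfa2t3 this was Zbtb16, a zinc finger repressor that recruits corepressors, at 1191, 1060 and 1209 in DMSO and 1875, 1503 and 1705 at 15 min (log2 change 0.55, adjusted p = 0.000295; 0.63 without replicate 2). The list's median log2 change was -0.01. The nuclear receptor corepressor gene Ncor1 had a log2 change of 0.11 and the deacetylase gene Hdac3 one of -0.15, and neither passed. None of 27 acetyltransferases, deacetylases and bromodomain readers passed with all replicates (median -0.04), where 2 had an unadjusted p under 0.05 and 0 passed in edgeR, and Hdac9 was the 1 that passed without replicate 2.

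Blood transcription factor genes, those of the SCL/GATA1 complex included, rose at 11 of 27 members tested and fell at none (10 and none without replicate 2), with a median log2 change of 0.26. In the complex itself, Tal1 and Gata1 rose, and the genes of its non-DNA-binding members Lmo2 and Ldb1, at 0.54 and 0.02, did not pass. The E protein genes Tcf3 and Tcf12, at 0.02 and -0.05, did not pass either. Gfi1b, read over all 3 treated libraries at like levels, went from 5039, 4526 and 4559 in DMSO to 11779, 11961 and 11022 at 15 min, with replicate 2 level with the others. Its log2 change was 1.30 (SE 0.14, adjusted p = 8.88e-06). Lyl1, a close relative of Tal1, went from 1701, 1645 and 1620 to 3236, 3765 and 3009 (log2 change 1.01, SE 0.08, adjusted p = 6.42e-07). The change without replicate 2 was 1.28 for Gfi1b and 0.91 for Lyl1.

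Gata1, the erythroid master regulator, stood at 2894, 2669 and 2864 in DMSO and at 4491, 5107 and 3981 at 15 min (log2 change 0.68, adjusted p = 0.00411; 0.59 and 0.0199 without replicate 2). Tal1 stood at 3727, 3535 and 3650 and then at 4596, 7568 and 4931, with replicate 2 well above its companions. Its log2 change was 0.61 with all replicates and 0.39 without replicate 2, and its adjusted p was 0.0775 when only the 6 libraries compared entered the fit. Klf1, which drives globin and membrane genes, rose by 0.90 in log2, from 662, 666 and 742 to 1073, 1578 and 1268, and by 0.76 without replicate 2.

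The ETS factor gene Erg had the largest change on this list. It stood at 149, 114 and 97.5 in DMSO and at 695, 481 and 534 at 15 min, with a log2 change of 2.24 (SE 0.21, adjusted p = 3.11e-06). Runx1, the gene of the factor whose leukemic fusion partner is an MTG protein, rose by 0.42, and the ETS factor gene Fli1 rose by 0.22. Without replicate 2 these changes were 2.35, 0.32 and 0.16. Myb, a progenitor factor, stood at 9674, 8414 and 8180 and then at 15881, 25011 and 14117. The groups did not overlap, but the change of 1.02 did not pass (adjusted p = 0.091, or 0.214 without replicate 2), while it passed without the 3 libraries that stand apart (adjusted p = 2.09e-05). Myc, a growth regulator, stood at 2643, 1989 and 2511 and then at 3917, 4745 and 3945. Its adjusted p was 0.0251 with all libraries, but 0.0709 without replicate 2, and its call was also lost without 15 min replicate 1 or 3 and without DMSO replicate 2 or 3. Without the 3 libraries that stand apart, a setting that called 27.8% of all genes, the adjusted p of Myc was 3.52e-05.

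**Figure D2:**
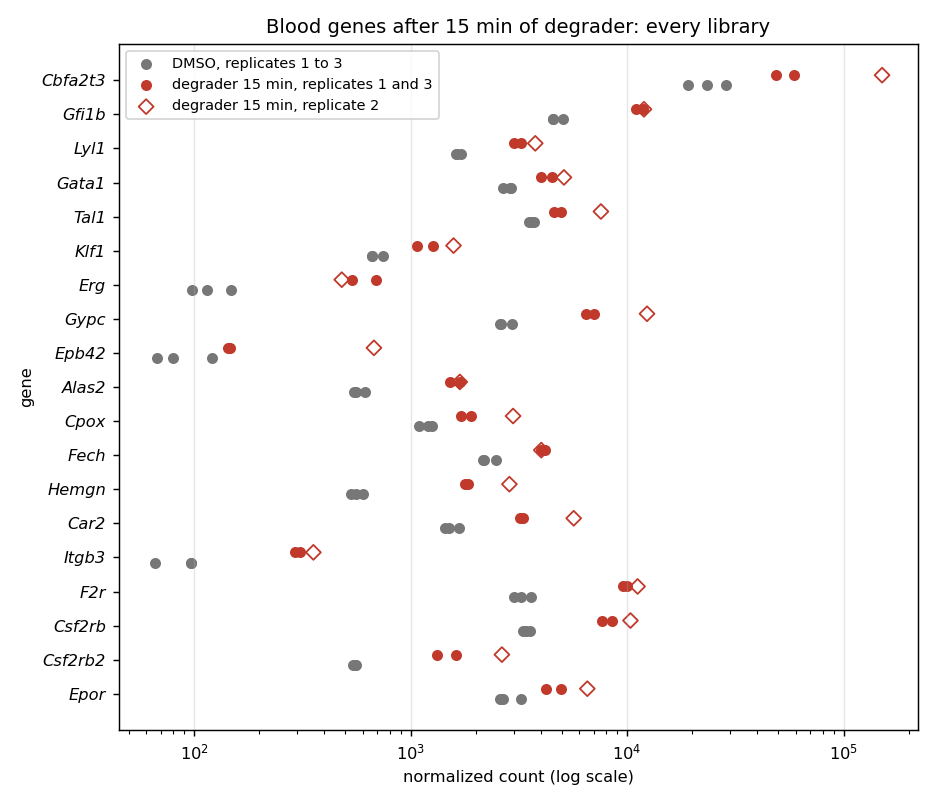
Normalized counts (x axis, log scale) of 19 blood genes (y axis) in each of the 3 DMSO libraries (grey) and 3 libraries of 15 min of degrader (red, with replicate 2 as an open diamond). For Cbfa2t3 and Epb42 the open diamond lies far to the right of replicates 1 and 3, at 150635 against 58870 and 48876 and at 677 against 144 and 147, while for Gfi1b, Alas2 and Fech the 3 libraries lie together.

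In bulk libraries, a change in how many cells transcribe a gene and a change in transcription per cell cannot be told apart, which holds for every gene group below. Of 19 red cell membrane and blood group genes tested, 13 rose and none fell, with a median log2 change of 0.62, and 12 rose without replicate 2. Of all genes tested, 5.89% and 7.33% rose in these fits. Without DMSO replicate 2, 8 rose. The summed count of the list was 64086, 63036 and 64900 in DMSO and 91969, 115371 and 89087 at 15 min.

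Gypc, the gene of a glycoprotein that ties the membrane to its skeleton, went from 2952, 2608 and 2585 in DMSO to 7034, 12358 and 6439 at 15 min (log2 change 1.60, SE 0.16, adjusted p = 4.42e-06), and by 1.31 in log2 without replicate 2. Art4, which carries the Dombrock blood group, went from 9.29, 9.53 and 5.50 to 31.5, 107 and 26.5 (log2 change 2.36, or 1.75 without replicate 2). In both genes replicate 2 was the highest library and the other replicates also lay above all DMSO libraries.

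Epb42, the gene of a protein of the band 3 complex, rested in large part on replicate 2. Its counts were 121, 79.7 and 67.3 in DMSO and 144, 677 and 147 at 15 min, and the adjusted p was 0.0478 with all replicates and 0.0704 without replicate 2. The log2 change was 1.48 with all replicates, and 0.74 without the 3 libraries that stand apart (adjusted p = 0.0013). The beta spectrin gene Sptb rose by 0.68 in log2, the skeletal protein gene Epb41 by 0.56, Add2 by 0.80, Tmod1 by 0.99 and the water channel gene Aqp1 by 1.28. Without replicate 2 these 5 changes were smaller, at 0.44, 0.47, 0.68, 0.65 and 1.01. The Rh antigen gene Rhd rose by 0.44 with all replicates and had an adjusted p of 0.0807 without replicate 2. Ank1, which anchors spectrin to the membrane, was at 0.04 and did not pass.

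Heme synthesis and iron genes rose at 8 of 20 members tested, none fell, and the median log2 change was 0.35. Without replicate 2, 8 rose and 1 fell, the heme exporter gene Flvcr1 (-0.25, adjusted p = 0.0207). Alas2, the rate-limiting enzyme of erythroid heme synthesis, stood at 550, 558 and 613 in DMSO and at 1690, 1687 and 1527 at 15 min. The 3 treated libraries were close together, and the log2 change was 1.51 (SE 0.13, adjusted p = 1.04e-06). Of the later enzymes, Cpox rose by 0.85 and Fech, which inserts the iron, by 0.84, whereas Alad at 0.09, Uros at 0.24, Urod at 0.41 and Ppox at 0.41 did not pass. Fech stood at 2175, 2157 and 2478 and then at 4177, 4013 and 4005, and Cpox at 1204, 1093 and 1257 and then at 1904, 2973 and 1703. The mitochondrial transporter gene Abcb10 rose by 0.87, and the transferrin receptor gene Tfrc by 0.37. With replicate 2 left out, the changes were 1.49 for Alas2, 0.61 for Cpox, 0.85 for Fech, 0.74 for Abcb10 and 0.28 for Tfrc.

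Globin and late erythroid genes rose at 9 of 14 members tested with and without replicate 2, and none fell (median log2 change 0.70). Of the 21 genes on the list 7 were not tested, among them the main adult globin genes Hba-a1, Hba-a2 and Hbb-bs and their chaperone gene Ahsp, so the list says little of hemoglobin itself. The band 3 gene Slc4a1 was likewise not tested. The adult globin gene Hbb-bt, whose reads could be shared with its near-identical paralog, was low, at 20.5, 15.6 and 28.9 in DMSO and 52.0, 52.0 and 72.2 at 15 min (log2 change 1.42, adjusted p = 0.00158). Hemgn, an erythroid nuclear protein gene, went from 561, 533 and 603 to 1849, 2859 and 1780 (1.90, SE 0.14, adjusted p = 5.38e-07). Car2, a carbonic anhydrase gene of mature red cells, went from 1675, 1448 and 1510 to 3304, 5666 and 3216, and Slfn14, a ribosome-associated nuclease gene, from 18.6, 12.1 and 12.4 to 69.8, 79.7 and 55.3. Replicates 1 and 3 alone gave 1.5 for Hbb-bt, 1.68 for Hemgn, 1.08 for Car2 and 2.07 for Slfn14.

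Platelet and megakaryocyte genes rose as well. Of 21 tested, 12 rose and none fell with all replicates, and likewise without replicate 2, with a median log2 change of 0.50. The summed count was 29082, 29010 and 30045 in DMSO and 45779, 45725 and 45790 at 15 min, with replicate 2 level with the others. F2r, the thrombin receptor gene, rose from 2991, 3219 and 3587 to 9987, 11178 and 9542 (log2 change 1.65, SE 0.09, adjusted p = 1.86e-08). Its relative F2rl2 rose by 1.44. Itgb3, the beta chain of the fibrinogen receptor, went from 96.7, 97.0 and 65.9 to 308, 355 and 291, and its partner Itga2b rose by 0.28. Gp1ba, part of the receptor for von Willebrand factor, rose by 1.03. Without replicate 2 the changes were 1.58 for F2r, 1.37 for F2rl2, 1.80 for Itgb3, 0.28 for Itga2b and 0.97 for Gp1ba. The platelet chemokine genes Pf4 and Ppbp were not tested.

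**Figure D3:**
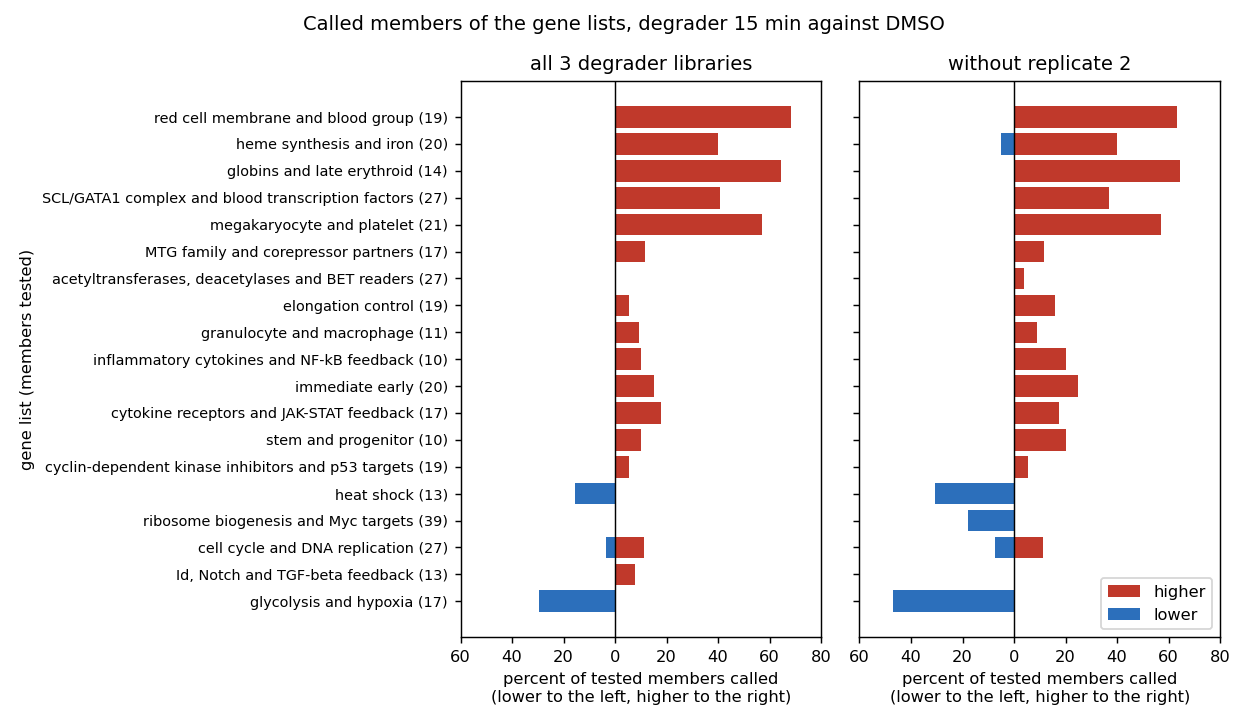
Percent of tested members called lower (blue, to the left) and higher (red, to the right) at 15 min against DMSO for each gene list with at least 10 members tested (number tested in brackets), with all 3 degrader libraries (left) and without replicate 2 (right). With all replicates the red cell membrane list has the longest red bar, at 13 of 19 members. Without replicate 2 the globin list, at 9 of 14, and the red cell membrane list, at 12 of 19, have the longest, and in both panels the glycolysis list has the longest blue bar, with 5 and 8 of 17.

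Cytokine receptor and JAK-STAT feedback genes rose at 3 of 17 members tested with and without replicate 2, and none fell (median log2 change 0.06). Of all genes tested, 5.89% rose with all replicates and 7.33% without replicate 2. The members that moved are all receptors. Csf2rb, the shared beta chain of the receptors for IL-3, IL-5 and GM-CSF, stood at 3396, 3548 and 3318 in DMSO and at 8528, 10362 and 7664 at 15 min (log2 change 1.36, adjusted p = 2.09e-05). Its paralog Csf2rb2 rose by 1.69, and reads of this near-identical pair may have been split between them. The erythropoietin receptor gene Epor rose by 0.87, from 3249, 2594 and 2662 to 4955, 6549 and 4229. With replicate 2 left out, the changes were 1.24 for Csf2rb, 1.41 for Csf2rb2 and 0.70 for Epor. The feedback genes Cish, Socs2 and Socs3 were at 0.02, -0.01 and 0.33 and did not pass.

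Most other lists held few called members, beside the 5.89% of all genes that were higher, and 1 member among 19 or 13 is near that share. Immediate early genes rose at 3 of 20 (5 without replicate 2; median 0.12), with Btg2, an antiproliferative gene, from 182, 126 and 195 to 508, 439 and 536 and Ier5 higher by 0.74, while Fos and Junb at 0.31 and 0.33 did not pass. Cyclin-dependent kinase inhibitor and p53 target genes rose at 1 of 19 (median 0.02), namely Gadd45a, a stress gene, from 429, 398 and 495 to 1029, 1087 and 1268 (1.35, adjusted p = 1.01e-06). Stem and progenitor genes rose at 1 of 10 (2 without replicate 2; median 0.11), namely the surface receptor gene Slamf1, by 0.78. Elongation control genes rose at 1 of 19 (3 without replicate 2; median 0.03), and that one, Hexim2 at 0.50, lost its call without replicate 2 (adjusted p = 0.0539). Genes of the Id, Notch and TGF-beta feedback list rose at 1 of 13 and at none without replicate 2 (median -0.04), the one being Tgfb1, from 10925, 11340 and 10983 to 13113, 14334 and 13268. Replicates 1 and 3 alone gave 1.66 for Btg2, 0.80 for Ier5, 1.38 for Gadd45a and 0.77 for Slamf1.

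Lists of other cell types were thinly covered, since most of their markers were not tested. Granulocyte and macrophage genes rose at 1 of 11 (median -0.02), namely the lactoferrin gene Ltf by 1.06, and the list summed to 2007, 2012 and 2105 in DMSO and 2061, 1861 and 2237 at 15 min. Lymphoid genes rose at 1 of 5 (median 0.05), Cd3d by 0.84. Its call was lost in 10 of the alternatives. Neuronal and epithelial genes rose at 2 of 6 (median 0.33), Gfap from 37.2, 35.5 and 20.6 to 111, 119 and 93.8 and the neuronal tubulin gene Tubb3 by 1.10. Of the mast cell and basophil list only Hdc was tested, and it did not pass with all replicates (0.66). Inflammatory genes rose at 1 of 10 (2 without replicate 2; median -0.05), the one being Il1b. Without replicate 2 the changes were 0.97 for Ltf, 0.93 for Cd3d, 1.73 for Gfap and 1.03 for Tubb3.

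The genes with the largest rises were of low count, a range in which the filter keeps genes that are high in some group. The 20 largest among genes called with and without replicate 2 had at most 59.5 normalized counts in any DMSO library, and all 20 kept their call in every alternative in which they were tested. Since they were picked as the largest rises, and many averaged under 10 in DMSO, the kept calls are no separate evidence. Samd7, a gene of a photoreceptor repressor protein, stood at 0, 5.20 and 4.12 in DMSO and at 72.5, 48.5 and 67.4 at 15 min (log2 change 4.31, SE 0.47, adjusted p = 1.23e-05). Il1b, the gene of the cytokine interleukin 1 beta, stood at 13.0, 25.1 and 17.9 and then at 157, 90.1 and 108 (2.61, adjusted p = 3.18e-06). With replicate 2 left out, the changes were 4.49 and 2.79. Both have replicate 2 as the lowest of the treated libraries, still above all DMSO libraries.

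Among the unnamed transcripts, Gm35202 was the most precisely measured, at 59.5, 42.4 and 44.0 in DMSO and 350, 330 and 301 at 15 min (log2 change 2.74, SE 0.15, adjusted p = 2.37e-08; 2.73 without replicate 2). The others with the largest rises were 4930428O21Rik (3.67), Gm10612 (3.26), 4921513I03Rik (3.18), Gm13842 (2.90), 4930406D18Rik (2.85), Gm16619 (2.53), D630044L22Rik (2.53) and E130215H24Rik (2.41). Coding genes among them were Ugt8a, which makes myelin galactolipids (2.66), Msmb, a secreted protein gene (2.60), Pdyn, the prodynorphin gene (2.54), Clec4e, a pattern receptor gene (2.47), Art4 (2.36), Lypd6 (2.30), the galactosyltransferase gene B4galt4 (2.28) and the potassium channel subunit gene Kcne3 (2.27). Several of these are best known from nerve or epithelium.

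Several of the 20 genes had a rising gene beside them. In the reference gene order, 12 of their 40 tested neighbours were higher at 15 min, at 11 of the 20 genes, beside 5.89% of all genes tested. These included Prkab1 (1.48) beside Gm13842, Nhlrc4 (1.86) beside D630044L22Rik, Cd47 (0.88) beside Gm16619, Ncoa4 (0.86) beside Msmb, Tent5c (0.82) beside 4930406D18Rik and Ggta1 (0.44) beside Gm35202. At 4 of the 20 genes a tested neighbour overlaps, as Cbfa2t3 does Gm10612, and reads of such pairs cannot be told apart. The share was not tested.

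Enzymes of glycolysis were among the falls. On the list of glycolysis and hypoxia genes 5 of 17 tested fell and none rose with all replicates (median log2 change -0.26), and 8 fell without replicate 2, beside 1.04% and 2.9% of all genes. Without 15 min replicate 1, 3 fell. Pkm, the pyruvate kinase gene, stood at 3416, 3385 and 3987 in DMSO and at 2060, 2252 and 2184 at 15 min, with the 3 treated libraries close together (log2 change -0.73, SE 0.07, adjusted p = 3.11e-06). Gpi1, the glucose phosphate isomerase gene, is not on the list and is named as 1 of the 12 largest falls. It stood at 4611, 4785 and 5819 and then at 2703, 3840 and 2850 (-0.71, adjusted p = 0.00285). Pgk1, the phosphoglycerate kinase gene, stood at 3691, 3514 and 3732 and then at 2183, 2900 and 2422 (-0.55, adjusted p = 0.000517), and the enolase gene Eno1 at 2557, 2516 and 2650 and then at 1586, 2039 and 1677 (-0.55, adjusted p = 0.00014). Replicates 1 and 3 alone gave -0.76 for Pkm, -0.86 for Gpi1, -0.66 for Pgk1 and -0.66 for Eno1. In Gpi1, Pgk1 and Eno1 replicate 2 lay between the DMSO libraries and the other treated ones.

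The list members Hk1 (0.09), Hk2 (0.02), Pfkp (-0.01), Aldoa (-0.25), Gapdh (-0.22) and Slc2a1 (-0.18) did not pass, nor did Vegfa (0.05). Ldha, the lactate dehydrogenase gene, was at -0.26 with all replicates and fell by 0.46 without replicate 2 (adjusted p = 0.000211). In that gene replicate 2, at 1882, lay above all 3 DMSO libraries (1782, 1675 and 1647), and replicates 1 and 3, at 1285 and 1188, lay below them.

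For other falls the DMSO libraries themselves were spread. Pfkl, a phosphofructokinase gene, stood at 1522, 1417 and 2346 in DMSO and at 947, 1302 and 955 at 15 min (log2 change -0.70, adjusted p = 0.0111). Bnip3, a mitophagy gene induced in hypoxia, stood at 370, 351 and 631 and then at 207, 293 and 257 (-0.79, adjusted p = 0.011). The collagen prolyl hydroxylase genes P4ha1 and P4ha2 stood at 2186, 2025 and 3638 and at 468, 431 and 735 in DMSO, and at 1462, 1710 and 1448 and at 281, 312 and 334 at 15 min (-0.72 and -0.78). Eno2, the second enolase gene, stood at 546, 523 and 771 and then at 360, 348 and 351 (-0.77, adjusted p = 0.000865). DMSO replicate 3 was the highest library for all of Pfkl, Bnip3, P4ha1, P4ha2 and Eno2, and the groups still did not overlap. Without replicate 2 their changes were -0.85, -0.91, -0.80, -0.79 and -0.76.

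Leaving out DMSO replicate 3 gave smaller falls that still passed, of -0.48 for Pfkl (adjusted p = 0.0496), -0.53 for Bnip3 (0.0408), -0.45 for P4ha1 (0.00971), -0.54 for P4ha2 (0.0219), -0.60 for Eno2 (0.00315) and -0.65 for Pkm (1.7e-05). Without 15 min replicate 1, Pfkl and Bnip3 lost their calls (adjusted p = 0.0623 and 0.0687). When only the 6 libraries compared entered the fit, Pfkl, Bnip3, P4ha1 and P4ha2 did not pass (adjusted p = 0.0944, 0.109, 0.0881 and 0.0605). Of the remaining falls named by size, Dmwd (-0.84), from 361, 297 and 305 to 201, 137 and 207, and the dystrophin-related gene Drp2 (-0.78) kept their calls when any 1 library was left out, at -0.65 and -0.91 without replicate 2. Gm15708 (-0.79), Gm4787 (-0.72) and the vesicle transport gene Rab34 (-0.65) lost their calls in several of the alternatives.

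**Figure D4:**
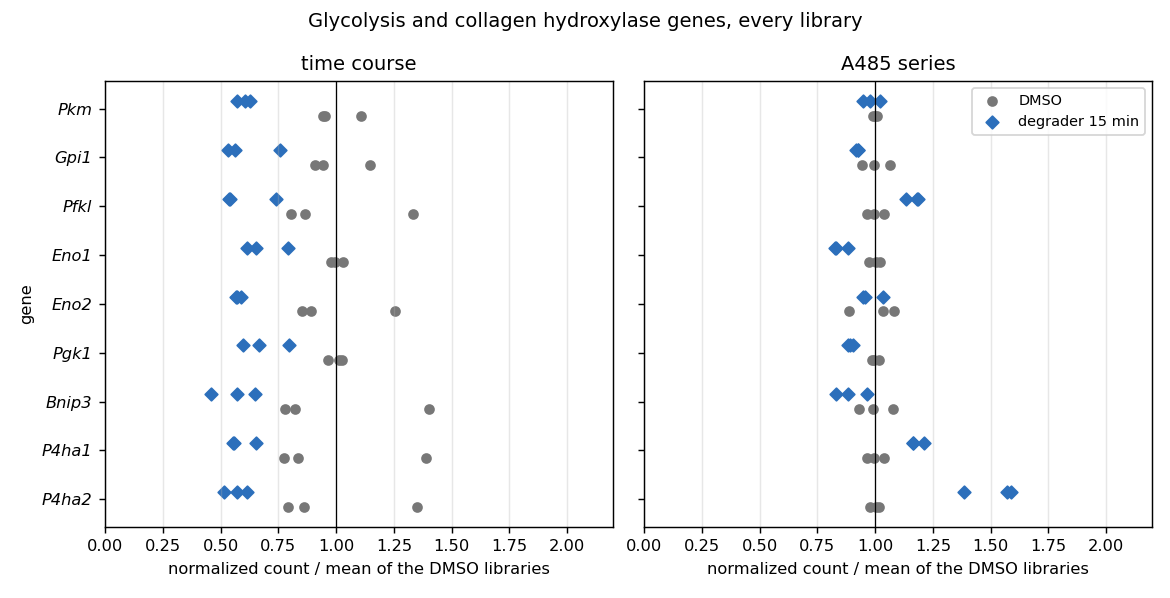
Normalized count divided by the mean of the DMSO libraries of the same experiment (x axis) for 9 genes (y axis), for each DMSO library (grey circles) and each library of 15 min of degrader (blue diamonds), in the time course (left) and the A485 series (right). In the time course all treated libraries lie below all DMSO libraries for each of the 9 genes, and in the A485 series those of P4ha1, P4ha2 and Pfkl lie above.

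The A485 series repeats the comparison in separate libraries of the same line at the same dose and time, normalized in a table of its own, so levels are not compared across the pair. There, 1368 of 12597 genes tested were higher (10.9%) and 730 lower (5.8%), or 16.7% in all. Of the 749 genes that rose in the time course, 723 were tested there, and 671 of these (92.8%) had the same sign, beside 49.6% of all genes tested in both that were higher there. In all, 397 were called higher in both, which is 54.9% of the 723 and 397 of the 1365 rises of the A485 series that the time course could test, and 6 were called the other way. Of the 132 falls, 90 (68.2%) had the same sign, beside 50.4% of all genes, 26 (19.7%) were called lower in both and 11 were called higher. Without replicate 2, 825 of 912 rises (90.5%) and 279 of 364 falls (76.6%) had the same sign.

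The genes that rose in the time course and were tested in both had a median log2 change of 0.69 in the time course and 0.34 in the A485 series, and those that fell had -0.36 and -0.06. Since the genes were selected in the time course, its own medians rest on that choice. Across the 12497 genes tested in both, which are not independent points and were read by the same assay, Pearson's r was 0.49 and Spearman's rho 0.33 (0.51 and 0.40 without replicate 2), given as a description. Single libraries moved the A485 counts, with 1398 genes called without its DMSO replicate 4, beside 2098 with all, and with 418 lower genes without DMSO replicate 4, 449 without 15 min replicate 5 and 460 without 15 min replicate 4, beside 730.

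Member by member, Cbfa2t3 stood at 11527, 10211 and 12072 in the DMSO libraries of the A485 series and at 17346, 17575 and 17124 at 15 min (log2 change 0.63, adjusted p = 6.19e-05). Those 3 treated libraries were level with each other, unlike the 3 of the time course. Gfi1b rose by 0.75 there, Lyl1 by 0.46, Erg by 1.02, Hemgn by 1.11, Mki67 by 0.60 and Gypc by 0.60. Myb rose by 0.48 (adjusted p = 7.49e-09) and Gata1 by 0.25 (0.0406). Tal1 at 0.13 (adjusted p = 0.0695), Myc at 0.25 (0.0982), Alas2 at 0.40 (0.11) and Itgb3 at 0.63 (0.078) were higher there without passing. Of all genes tested there, 10.9% rose and 5.8% fell. Among the lists, 9 of 18 red cell membrane genes rose, and 8 of 20 heme and iron genes rose and 2 fell. Of globin and late erythroid genes 4 of 13 rose, and of blood transcription factor genes 9 of 27 rose and 1 fell. The platelet list, with 2 of 20 higher and 1 lower, was near the shares of all genes. The platelet list was thus called at 12 of 21 in the time course and at 2 of 20 here, a difference that was not tested.

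On the glycolysis and hypoxia list 2 of 16 fell and 4 rose in the A485 series, beside 5.8% lower and 10.9% higher of all genes. Pkm stood at 945, 936 and 953 in DMSO there and at 925, 894 and 965 at 15 min, overlapping (log2 change -0.03, adjusted p = 0.876), and Eno1 fell by 0.24 (adjusted p = 0.0238). Gpi1, which is not on the list, at -0.11 (adjusted p = 0.0992) and Pgk1 at -0.16 (0.0658) did not pass. In both, every treated library lay below every DMSO library there. Pgam1, the phosphoglycerate mutase gene, which is not on the list and is named after its values were seen, fell in both experiments, by 0.60 in the time course (0.63 without replicate 2) and by 0.41 in the A485 series (adjusted p = 0.00381). P4ha2 went the other way, from 201, 199 and 193 to 314, 310 and 273 (0.59, adjusted p = 0.000135), as did P4ha1 (0.24, adjusted p = 0.000606) and Pfkl (0.22, adjusted p = 0.0343).

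**Figure D5:**
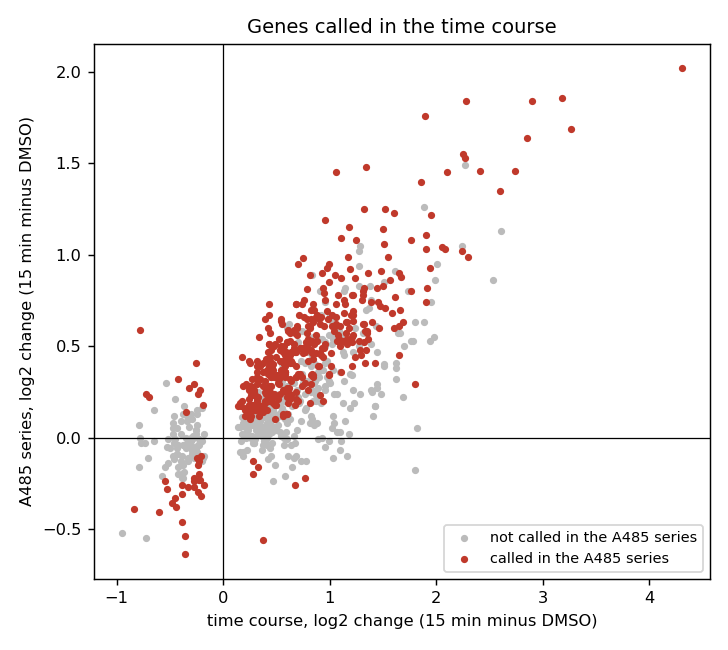
Log2 change at 15 min against DMSO in the time course (x axis) and in the A485 series (y axis) for each gene called in the time course and tested in both, in red where it was also called in the A485 series. Of the 723 genes that rose in the time course 671 lie above 0 on the y axis, and of the 132 that fell 90 lie below it.

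Few heat shock, ribosome or cell cycle genes were called with all replicates. Without the 3 libraries that stand apart, beside 13.7% lower of all genes, 24 of 39 ribosome genes were lower and 1 higher, 10 of 27 cell cycle genes were lower and 4 higher, and 7 of 13 heat shock genes were lower. Of 13 heat shock genes tested, 2 fell and none rose (median -0.12), the chaperone genes Dnaja1 (1634, 1652 and 1615 in DMSO, 1337, 1116 and 1304 at 15 min, log2 change -0.39) and Hspa4l (-0.27), and 4 fell without replicate 2. Dnaja1 fell by 0.46 and Hspa4l by 0.24 in the A485 series. None of 39 ribosome biogenesis and Myc target genes passed with all replicates (median -0.06), where 4 had an unadjusted p under 0.05 and 0 passed in edgeR, and 7 fell without replicate 2, among them Wdr12 (-0.38) and Ldha. The ribosome list summed to 144684, 143800 and 123239 in DMSO and 117624, 160388 and 120158 at 15 min, so replicate 2 was above all DMSO libraries and the others below. Of 27 cell cycle and replication genes 3 rose and 1 fell (median -0.08). The licensing factor gene Cdc6 rose by 0.59, the cyclin gene Ccnd3 by 0.54 and Mki67 by 0.42, from 12616, 13201 and 14071 to 18424, 15363 and 19744, and Rrm2 of ribonucleotide reductase was at -0.38, a call lost in 9 of the alternatives. Without replicate 2 the changes were 0.50 for Cdc6, 0.58 for Ccnd3, 0.52 for Mki67, -0.31 for Dnaja1 and -0.29 for Hspa4l.

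At dREG sites, too, rises outnumbered falls. Of 23307 sites tested, 2734 were higher at 15 min (11.7%) and 503 lower (2.16%), or 13.9% in all, with a median rise of 1.18 in log2 and a median fall of -0.67. Rises of at least 1 were seen at 1726 sites and falls of at least 1 at 83. Without replicate 2, 2637 were higher (11.3%) and 829 lower (3.56%), or 14.9% in all, and 2376 sites were higher and 365 lower in both. Without the 3 libraries that stand apart, 3536 were higher (15.2%) and 2080 lower (8.92%), or 24.1% in all. The count of lower sites was 252 without 15 min replicate 1, 230 without DMSO replicate 2 and 235 without DMSO replicate 3. Of the 2637 sites higher without it, replicate 2 lay above all DMSO libraries at 2386 (90.5%) and below all of them at 26, and of the 829 lower, it lay below at 488 (58.9%) and above at 89 (10.7%). Over all sites tested replicate 2 lay above all DMSO libraries at 31.5% and below them at 31.1%, and the calls had used the same DMSO libraries.

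Of the sites tested, 1327 averaged under 10 in DMSO and were thus tested only because other libraries were higher, and 557 of these were called higher and none lower. With them, the median DMSO count was 35.7 at rising sites, 124 at falling sites and 53.4 at all sites tested, an order the filter sets in part. The rising sites were also wider, with a median of 910 bases, against 610 for the falling and 670 for all.

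The 8 sites with the largest rises, on mm39 coordinates as given in the table, had at most 17.9 counts in any DMSO library. At chr2:127926031-127926610 the counts were 14.9, 15.5 and 17.9 in DMSO and 183, 309 and 179 at 15 min (log2 change 3.67, SE 0.31, adjusted p = 4.37e-09), and in the A485 series the same site rose by 2.09. At chr12:32193561-32194340 they were 3.74, 0.914 and 0 in DMSO and 49.4, 29.1 and 24.3 at 15 min (4.02), and at chr7:74578481-74579440 0, 0.914 and 1.49 and then 31.0, 15.2 and 28.7 (3.89). The others were chr16:92944761-92945580 (3.64), chr5:147669281-147669740 (3.63), chr12:75891241-75892020 (3.62), chr9:123053711-123054210 (3.52) and chr4:89129421-89130200 (3.51). At all 8 the groups did not overlap, as at 16.3% of all sites, but these were picked as the largest rises. All but the chr2 site averaged under 10 in DMSO and were thus tested only because other libraries were higher. Their lack of overlap was therefore set in large part by the choice. Without replicate 2 the 8 changes were 3.41 to 4.2. No annotation of that build was used here, so the genes around these sites are not named.

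The largest falls at sites rest on few reads. The most robust of the 6 was chr9:72996621-72996860, at 29.9, 20.1 and 34.3 in DMSO and 3.44, 7.28 and 6.63 at 15 min (log2 change -2.12, SE 0.45, adjusted p = 0.00139). It kept its call in every alternative, but stood at 0.27 (adjusted p = 0.796) in the A485 series. The other 5, chr3:96211021-96211400 (-2.17), chr4:129249271-129249560 (-1.75), chr2:176768661-176769020 (-1.74), chr4:59624441-59624880 (-1.73) and chr12:56724621-56725650 (-1.70), each lost their call in at least 1 alternative. In the A485 series, 2138 of the 2234 rising sites tested there had the same sign (95.7%, beside 53% of all sites), 684 were also called higher (30.6%) and none lower. Of 482 falling sites tested there 370 had the same sign (76.8%, beside 47%) and 20 were called lower (4.15%, beside 1.26%). The A485 series called 1159 sites (5.44%), 897 higher (4.21%) and 262 lower (1.23%), and 506 without its DMSO replicate 4, 559 without 15 min replicate 4 and 618 without 15 min replicate 5.

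Between 15 and 30 min, no gene and no site passed with all libraries in limma, where 1273 genes and 2175 sites had an unadjusted p under 0.05, and none passed in edgeR either, with 1235 and 2116. Without 15 min replicate 2, 264 genes differed (150 higher and 114 lower at 30 min) and 58 sites (39 and 19). Without the 3 libraries that stand apart, 853 genes (6.71%) and 331 sites (1.42%) differed. Against the same DMSO libraries, 1105 genes were higher (8.69%) and 658 lower (5.17%) at 30 min, and 2791 sites higher (12%) and 933 lower (4%).

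Side by side, group means at the 2 times were as follows for the members. Gfi1b averaged 11587 at 15 min and 10469 at 30 min, Alas2 1635 and 1636, and Erg 570 and 577. Pkm averaged 2165 and 2404. Cbfa2t3 replicates 1 and 3, at 58870 and 48876, lay below all 3 of the 30 min libraries.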

How the data were processed

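The authors deposited one table of genes and one of dREG sites per experiment. Per the labels these hold counts after DESeq2 normalization, treated here as a non-negative signal. The submitters' processing notes list DESeq2 1.46.0, featureCounts 2.0.1, HOMER, bedtools, SAMtools 1.16.1 and Bowtie2 2.2.2, with mm39 and dm3 as builds. Not given in the sources used here are the tools' roles, strand use in counting and the purpose of dm3. The 25857 transcripts were reduced to 15020 symbols, each by its transcript with the highest mean, and 3 per-sample columns that could not be tied to a sample were not used. Dividing by the smallest step of its library turned 100% of values into whole reads (tolerance 0.1), which were used for depth and for edgeR 4.0.16 and DESeq2 1.42.0.

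Genes and sites averaging at least 10 were tested as log2(value + 1) with limma 3.58.1 (R 4.3.3, trend), all mapped libraries of the time course sharing one estimate of the spread (19 for genes and 22 for sites, the 5 with conflicting labels included), with Benjamini-Hochberg adjustment. The A485 series was fitted in its own table. The scripts were checked on simulated counts for the comparison of 15 min with DMSO (200 changed of 12696 genes and 200 of 23132 sites). There, 99.5% of the changed genes and 89.5% of the changed sites were recovered, and 10 unchanged genes and 27 unchanged sites were also called. These figures describe the scripts only. How many rises and falls of the sizes seen in these libraries were missed was not tested. Named genes are the 20 largest rises and 12 largest falls among genes called with and without replicate 2, the called members of each list with the largest change (up to 4), and 7 regulators whatever they did (Cbfa2t3, Tal1, Gata1, Gfi1b, Lyl1, Myb and Myc). Sites are 8 rises and 6 falls by the same rule. Other genes named with a value were chosen after their values were seen. Lists and members were chosen with earlier results of these data known. A few results that are withheld are not reported here.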

Additional observations from a re-analysis of the deposited data

Results flagged for a closer look

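The 3 genes P4ha2, P4ha1 and Pfkl fell at 15 min in the time course, where every treated library lay below every DMSO library, and were higher in the A485 series, where every treated library lay above every DMSO library. In the A485 series the log2 changes were 0.59 for P4ha2, 0.24 for P4ha1 and 0.22 for Pfkl, and in the time course they were -0.78, -0.72 and -0.70. The difference between the experiments was not tested, since the tables were normalized separately.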

How the results depend on the processing

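Of the 90 called genes and sites named in the text, 69 kept direction and call in every alternative, 21 lost the call in at least 1, and none changed direction. Genes called at 15 min, 881 with all libraries, numbered 587 to 1302 when 1 library was left out, 3536 without the 3 libraries that stand apart, and 2266 when only the 6 libraries compared entered, less replicate 2. Sites called, 3237 with all, numbered 2384 to 3466, and 5616 without those 3. Between 15 and 30 min the counts were 0 to 264 genes and 0 to 58 sites when 1 library was left out, and 853 genes and 331 sites without the 3. In the A485 series they were 1398 to 1700 genes (2098 with all) and 506 to 1035 sites (1159 with all), and 1787 sites in edgeR. edgeR and DESeq2 called 856 and 1037 genes in the time course. Other pseudocounts, no filter, and a mean of at least 50 gave 816 to 878 genes. With the replicate block, 887 genes and 3172 sites were called in the time course and 2025 and 1112 in the A485 series, and between 15 and 30 min 0 genes and 0 sites. Deviations of same-numbered libraries correlated at -0.01, 0.17 and 0.20 over genes and at 0.10, 0.10 and 0.11 over sites, the site value of replicate 2 lying under 0.1, so the numbers were not taken to pair the libraries. Over sites every library correlated best with its own number, a hint from the data and not from the design. With the replicate block and without replicate 2, an alternative chosen after seeing the data, 1197 genes and 3032 sites were called. The cause of these shifts was not tested. With 3 libraries a group and 1969884 reads over sites in the shallowest, falls at sites of few reads are the least certain calls.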

Other observations

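Some genes were high in replicates 1 and 3 and at the DMSO level in replicate 2, and these were chosen after their values were seen. Nfkb1, the gene of an NF-kB subunit, stood at 8856, 8663 and 8904 in DMSO and at 15837, 8467 and 14122 in 15 min replicates 1 to 3, with a mean of 8330 in the libraries labelled 2 h. Its adjusted p was 0.172 with all replicates and 0.00462 without replicate 2 in limma. Egr1, an immediate early transcription factor gene, stood at 574, 591 and 997 in DMSO and at 1517, 612 and 1419 at 15 min. Hdc, the histamine synthesis enzyme gene, stood at 165, 127 and 125 and then at 337, 126 and 248. Rhag, which carries ammonia across the red cell membrane, stood at 7624, 8087 and 8010 and then at 11701, 8063 and 11426. In the A485 series, Egr1 and Hdc were higher at 15 min (log2 changes 0.43 and 0.66, adjusted p = 1.75e-07 and 0.0236), and Nfkb1 at 0.08 and Rhag at 0.18 did not pass.

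Others were high in replicate 2 well beyond the other treated libraries, as at the later times. Tmod1, which caps actin filaments of the red cell skeleton, stood at 1961, 1841 and 2098 in DMSO, at 3179, 6238 and 2973 at 15 min and at a mean of 4992 at 30 min. Sptb, the beta spectrin gene, stood at 6312, 5721 and 6180, then at 8360, 13504 and 8058, with a mean of 11212 at 30 min.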
